A study of Mus musculus with 6 samples.

Results

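The enzymes of glycolysis, the pentose phosphate pathway and the tricarboxylic acid (TCA) cycle were followed in 3 populations of mouse CD4 T cells on Affymetrix Mouse430_2 arrays. The 36 enzyme genes comprised 16 of glycolysis, 7 of the pentose phosphate pathway and 13 of the TCA cycle with its pyruvate entry, out of 18193 genes named on the array. Where a gene had several named probe sets, the brightest on average across the 6 arrays was used. Testing required a value over 5.48, the median of the whole table, in 2 or more arrays, and 32 of the 36 genes were measured and tested, 13, 6 and 13 by pathway. Gpi1, Eno1 and G6pdx had no probe set with a gene name here. Gapdh was named alone only on array control probe sets, which stayed outside the test, and its values are given separately.

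All hosts were BALB/c mice with the Rag1-/- genotype, which have no T or B cells of their own. They had received wild-type natural regulatory T cells (nTreg) together with 500000 wild-type regulatory T cells made in culture (iTreg). After 125 days, spleen and mesenteric lymph node cells of 14 hosts were sorted and pooled. The nTreg group was EGFP+ Thy1.1-, the iTreg group EGFP+ Thy1.1+ and the ex-iTreg group EGFP- Thy1.1+, where EGFP reports the regulatory T cell factor Foxp3 and Thy1.1 marks cells that descend from the cultured ones. Each group has 2 arrays, pool 1 and pool 2, and the ages of the mice are not stated. Nothing in the labels says that the pools of a group came from separate mice, so the p-values rest on a spread that may be technical. The labels' protocol also describes injection of cells into the peritoneal cavity of colitic mice, without saying which samples this concerns.

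Glycolysis splits glucose into pyruvate in the cytosol and ends in lactate when lactate dehydrogenase reduces the pyruvate. The pentose phosphate pathway branches off after the hexokinase step, making NADPH in its oxidative arm and exchanging sugars through transketolase and transaldolase in its non-oxidative arm. Pyruvate enters the mitochondrial TCA cycle through the pyruvate dehydrogenase complex, which pyruvate dehydrogenase kinases switch off. Effector T cells are known for strong glycolysis, and regulatory T cells for relying more on mitochondrial oxidation.

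The differences were spread unevenly over the genes of each pathway. The ex-iTreg arrays were higher than both reporter-positive populations for Hk2, an inducible hexokinase, and Pfkp, the platelet-type phosphofructokinase. They were lower than both for Aldoc, Pkm, Ldhb, Pgd, Tkt, Tktl1, Idh1 and Dlat. Pdk1, a pyruvate dehydrogenase kinase, was 2.80-fold higher in iTreg and 2.44-fold higher in ex-iTreg than in nTreg arrays. Of the 32 genes, 22 passed the test in at least 1 of the 3 comparisons and 10 in none. Of all tested genes, 29.1%, 36.6% and 37.4% passed in the single comparisons. The share passing in at least 1 was not computed, so the 22 cannot be set against it.

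Tests came from limma in a model with a mean for each group, with p-values adjusted by Benjamini-Hochberg over all 23484 tested probe sets, and a gene passed at an adjusted p of 0.05. Differences are log2 differences of group means ± the standard error from that fit, n = 2 arrays per group. A probe set's level depends on its probes, so levels are compared between arrays and not between genes. The 3 comparisons share arrays, and each gene's values in them are not independent. In iTreg minus nTreg, 8 of the 32 genes were higher and 3 lower, where 29.1% of 11015 tested genes passed, 16.4% as higher and 12.7% as lower. In ex-iTreg minus iTreg 3 were higher and 12 lower, beside 36.6% of all tested genes, 15.6% higher and 21% lower. In ex-iTreg minus nTreg 6 were higher and 10 lower, beside 37.4% of all tested genes, 18.4% higher and 19% lower. The arrays of the compared groups did not overlap for 68%, 72.8% and 71.1% of all tested genes in these comparisons, so separated groups are the usual case here.

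Promoter sequences are shown for 4 of the 6 genes that were higher in ex-iTreg than in nTreg arrays. Pdk1, Hk2 and Pfkp had the largest of these increases, and Ldha, whose increase was smaller than that of Idh2 (not shown), was chosen after its matches were seen, as an example that holds several. Each is the 100 bases just before a RefSeq transcript start in build GRCm38.p6, 5′ to 3′ on the gene's strand, and capitals mark ACGTG on either strand, a form of the core of the hypoxia response element. Ldha and Pdk1 each have 2 listed starts; the start with more matches is shown for Ldha, and the start listed first for Pdk1, which has no match at either. Hk2 lies at chr6:82774455-82774554 on the minus strand, Pfkp at chr13:6648772-6648871 on the minus strand, Ldha at chr7:46845704-46845803 on the plus strand and Pdk1 at chr2:71873124-71873223 on the plus strand.
Hk2: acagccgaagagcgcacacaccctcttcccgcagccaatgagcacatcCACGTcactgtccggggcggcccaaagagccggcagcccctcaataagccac
Pfkp: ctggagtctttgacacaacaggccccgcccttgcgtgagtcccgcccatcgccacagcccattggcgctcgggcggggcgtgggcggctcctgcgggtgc
Ldha: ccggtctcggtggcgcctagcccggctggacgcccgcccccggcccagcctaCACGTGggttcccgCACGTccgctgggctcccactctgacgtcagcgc
Pdk1: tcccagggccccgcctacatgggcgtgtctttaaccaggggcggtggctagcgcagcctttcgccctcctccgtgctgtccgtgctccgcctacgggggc

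The Hk2 stretch held ACGTG 1 time and the Ldha stretch 3 times, 2 of these overlapping within a single CACGTG, the canonical E-box. The Pfkp and Pdk1 stretches held no ACGTG. Other forms of the core of the hypoxia response element were neither searched for nor marked. The Pfkp and Pdk1 stretches therefore cannot be said to lack that core. The windows of the table span 250 bases before to 50 after each start. Over these, 21 of 54 windows of the 36 genes (38.9%) held ACGTG on either strand, and 6447 of 32851 windows of all genes (19.6%). CACGTG, which contains ACGTG, stood in 5 of the 54 windows (9.26%) and in 7.15% of all windows. Windows of a gene with several starts can overlap, and Ogdh alone gave 6 of the windows with ACGTG and 3 of those with CACGTG. By gene, ACGTG was present for 14 of 35 and for 5886 of all 27025 genes. CACGTG was present for 3 of 35 and for 2187 of all 27025. ACGTG was present for 3 of the 6 genes higher in ex-iTreg than nTreg arrays (Hk2, Pgam1 and Ldha) and for 3 of the 10 lower ones (Aldoc, Pkm and Mdh1). It was also present for 6 of the 15 genes with a window that did not pass in that comparison. A match describes the letters in the window and says nothing of binding in these cells.

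**Figure D1:**
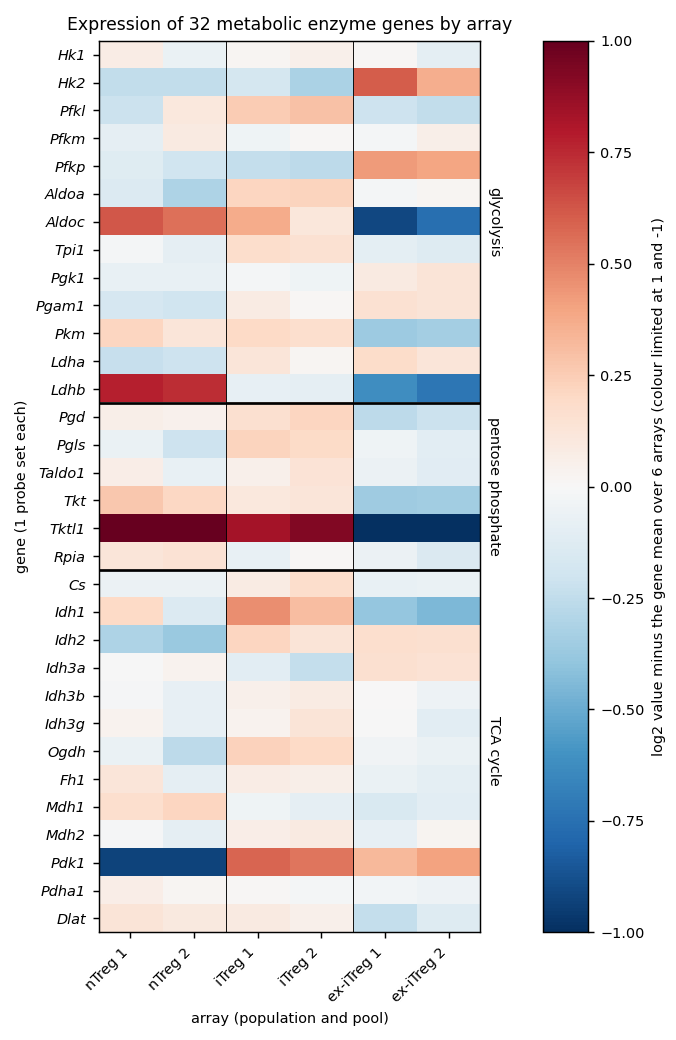
Log2 value of each of the 32 genes in each of the 6 arrays, minus that gene's mean over the arrays, with colour limited at 1 and -1; rows are grouped by pathway and columns by population. Pdk1 is low in both nTreg arrays, Ldhb steps down from nTreg to ex-iTreg arrays, and Tktl1 is at the lower colour limit in both ex-iTreg arrays.

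Glycolysis began with a division between its 2 measured hexokinases, which phosphorylate glucose. Hk2 read 6.92 and 6.92 in nTreg arrays, 6.99 and 6.85 in iTreg arrays, and 7.77 and 7.53 in ex-iTreg arrays. Both ex-iTreg arrays lay above all others, and the nTreg and iTreg arrays overlapped. Hk2 rose by 0.73 ± 0.10 in ex-iTreg against iTreg arrays, 1.65-fold (adjusted p = 0.00237), and by the same 0.73 ± 0.10 against nTreg arrays (adjusted p = 0.00195). Hk1, the constitutive hexokinase, read 9.50 to 9.67 in the 6 arrays and passed in no comparison.

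Phosphofructokinase, the committing step, is encoded by the liver-type Pfkl, muscle-type Pfkm and platelet-type Pfkp genes. Pfkp read 10.61 and 10.53 in nTreg arrays, 10.49 and 10.47 in iTreg arrays, and 11.16 and 11.13 in ex-iTreg arrays. The ex-iTreg arrays stood apart from the other 4 by more than 0.5. Pfkp rose by 0.66 ± 0.07 against iTreg arrays (adjusted p = 0.000729) and by 0.58 ± 0.07 against nTreg arrays (adjusted p = 0.000953). Its other 2 tested probe sets differed by 0.53 and 0.69 from iTreg arrays and both passed, whereas against nTreg arrays they differed by 0.23 and 0.72 and 1 passed. Pfkl was lower in ex-iTreg than iTreg arrays, by 0.50 ± 0.11 on the log2 scale (adjusted p = 0.0137), and 1 of its 2 other probe sets passed too (-0.30). That call was lost without any 1 of the iTreg or ex-iTreg arrays (adjusted p from 0.0545 to 0.0763). Pfkm lay between 6.78 and 6.96 in all arrays.

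The aldolases, which cleave fructose bisphosphate, went different ways. Aldoc, an aldolase best known from brain, read 7.18 and 7.11 in nTreg arrays, 6.93 and 6.67 in iTreg arrays, and 5.65 and 5.80 in ex-iTreg arrays. The groups did not overlap and followed the order nTreg, iTreg, ex-iTreg, but the step between nTreg and iTreg arrays missed the threshold (-0.35 ± 0.10, adjusted p = 0.0507). Over 14 alternatives its adjusted p ran from 0.0349 to 0.208, and 5 of them passed, that without iTreg pool 1 among them (0.0351). Aldoc fell by 1.07 ± 0.10 in ex-iTreg against iTreg arrays (adjusted p = 0.000707) and by 1.42 ± 0.10 against nTreg arrays, 2.68-fold (adjusted p = 0.000162). Its other probe set, with a mean of 3.63, was below the filter. Aldoa, the main aldolase outside liver and brain, read 11.09 and 10.92 in nTreg, 11.44 and 11.45 in iTreg and 11.21 and 11.25 in ex-iTreg arrays. It rose by 0.44 ± 0.08 in iTreg against nTreg arrays (adjusted p = 0.00892), as did 3 of its 4 other probe sets. Its differences of -0.22 from iTreg and 0.23 from nTreg in ex-iTreg arrays did not pass, although 3 of the 4 other probe sets were higher in ex-iTreg than nTreg arrays (0.31 to 0.41).

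The enzymes of the middle steps moved little. Tpi1, triose phosphate isomerase, was higher in iTreg arrays, by 0.22 ± 0.06 against nTreg, and fell again by 0.28 ± 0.06 in ex-iTreg arrays (adjusted p = 0.0445 and 0.0171). Both other Tpi1 probe sets passed in the latter comparison and neither in the former. Pgk1, phosphoglycerate kinase, read 11.69 to 11.89 and passed in no comparison, while 1 of its 2 other probe sets was higher in ex-iTreg than nTreg arrays (0.24). Pgam1, phosphoglycerate mutase, read 9.83 and 9.80 in nTreg, 10.08 and 10.01 in iTreg and 10.15 and 10.13 in ex-iTreg arrays. It was higher than in nTreg arrays by 0.23 ± 0.06 in iTreg arrays (adjusted p = 0.0401) and by 0.32 ± 0.06 in ex-iTreg arrays (adjusted p = 0.0098). Several of these small calls did not hold when an array was left out, although the differences changed little. In iTreg minus nTreg, Tpi1 and Pgam1 were lost without any 1 of the 6 arrays. Tpi1 in ex-iTreg minus iTreg was lost without any 1 of the 4 arrays compared, and Pgam1 in ex-iTreg minus nTreg without either ex-iTreg array. Over all single omissions, iTreg minus nTreg ran from 0.18 to 0.26 for Tpi1 and from 0.19 to 0.27 for Pgam1. Tpi1 ran from -0.29 to -0.26 in ex-iTreg minus iTreg, and Pgam1 from 0.30 to 0.33 in ex-iTreg minus nTreg.

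The glycolytic enzyme Gapdh was readable on 3 control probe sets at the 3′ end, middle and 5′ end of its transcript. The 3′ set read 12.12 and 12.13 in nTreg, 12.37 and 12.34 in iTreg and 12.13 and 12.06 in ex-iTreg arrays, and the 5′ set 11.97 and 11.98, 11.98 and 11.82, and 12.13 and 12.11. The gap between the ends was thus 0.15 in both nTreg arrays, 0.38 and 0.51 in iTreg arrays and 0.00 and -0.04 in ex-iTreg arrays. The same gap for Actb was 0.39 and 0.40, 0.53 and 0.49, and 0.38 and 0.36. Signal at the 5′ ends of both transcripts was therefore lowest relative to the 3′ end in iTreg arrays, and the part of this in the enzyme differences was not tested. When these control probe sets were added to the fit, a choice made after seeing the data, the 3′ set passed at 0.23 in iTreg minus nTreg and at -0.26 in ex-iTreg minus iTreg arrays (adjusted p = 0.0403 and 0.0207), and the 5′ set in neither (-0.07 and 0.21). The middle set read 11.65 and 11.60 in nTreg, 11.84 and 11.78 in iTreg and 11.87 and 11.81 in ex-iTreg arrays, and did not pass in those comparisons (0.18 and 0.03). In ex-iTreg minus nTreg arrays the middle set passed at 0.21 (adjusted p = 0.0479), and the 3′ and 5′ sets did not (-0.03 and 0.14), so that the Gapdh calls differ between the parts of its transcript.

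At the last steps of glycolysis, Pkm and Ldhb fell and Ldha was higher in ex-iTreg than nTreg arrays. Pkm, pyruvate kinase of muscle type, read 9.90 and 9.80 in nTreg, 9.88 and 9.85 in iTreg and 9.32 and 9.34 in ex-iTreg arrays. The ex-iTreg arrays lay below the rest, and nTreg and iTreg arrays overlapped. Pkm fell by 0.53 ± 0.07 against iTreg arrays and by 0.52 ± 0.07 against nTreg arrays (adjusted p = 0.00173 and 0.00154). Its splice forms were not analysed here.

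Lactate dehydrogenase is a tetramer of the Ldha subunit, associated with lactate production, and the Ldhb subunit, associated with lactate use. Ldhb read 8.84 and 8.80 in nTreg arrays, 7.98 and 7.97 in iTreg arrays, and 7.44 and 7.34 in ex-iTreg arrays. The groups were fully separated, in 2 steps down. Ldhb fell by 0.84 ± 0.07 in iTreg against nTreg arrays (adjusted p = 0.000531), by a further 0.59 ± 0.07 in ex-iTreg arrays (adjusted p = 0.00124) and by 1.43 ± 0.07 from nTreg to ex-iTreg arrays, 2.70-fold (adjusted p = 2.47e-05). All 3 other probe sets passed in the same direction in all 3 comparisons, between -0.96 and -1.73 in ex-iTreg minus nTreg arrays. Ldha read 11.32 and 11.34 in nTreg, 11.67 and 11.57 in iTreg and 11.73 and 11.67 in ex-iTreg arrays. It was higher than in nTreg arrays by 0.29 ± 0.07 in iTreg arrays (adjusted p = 0.023) and by 0.37 ± 0.07 in ex-iTreg arrays (adjusted p = 0.00693). The former call was lost without any 1 of the nTreg or iTreg arrays (adjusted p from 0.0546 to 0.109) and the latter without ex-iTreg pool 1 (adjusted p = 0.0525).

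Over glycolysis as a whole, 4 of 13 genes were higher and 1 lower in iTreg than nTreg arrays, with a median difference of 0.04, the same as over all tested genes (0.04). Without an array this count of 5 fell to 2 (nTreg pool 1 or iTreg pool 2) or 3 (any other). In ex-iTreg minus iTreg 2 were higher and 5 lower, with a median of -0.08 against -0.02 over all tested genes. In ex-iTreg minus nTreg 4 were higher and 3 lower, with a median of 0.02 against 0.03. The passing share was 38.5%, 53.8% and 53.8%, beside 29.1%, 36.6% and 37.4% of all tested genes.

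**Figure D2:**
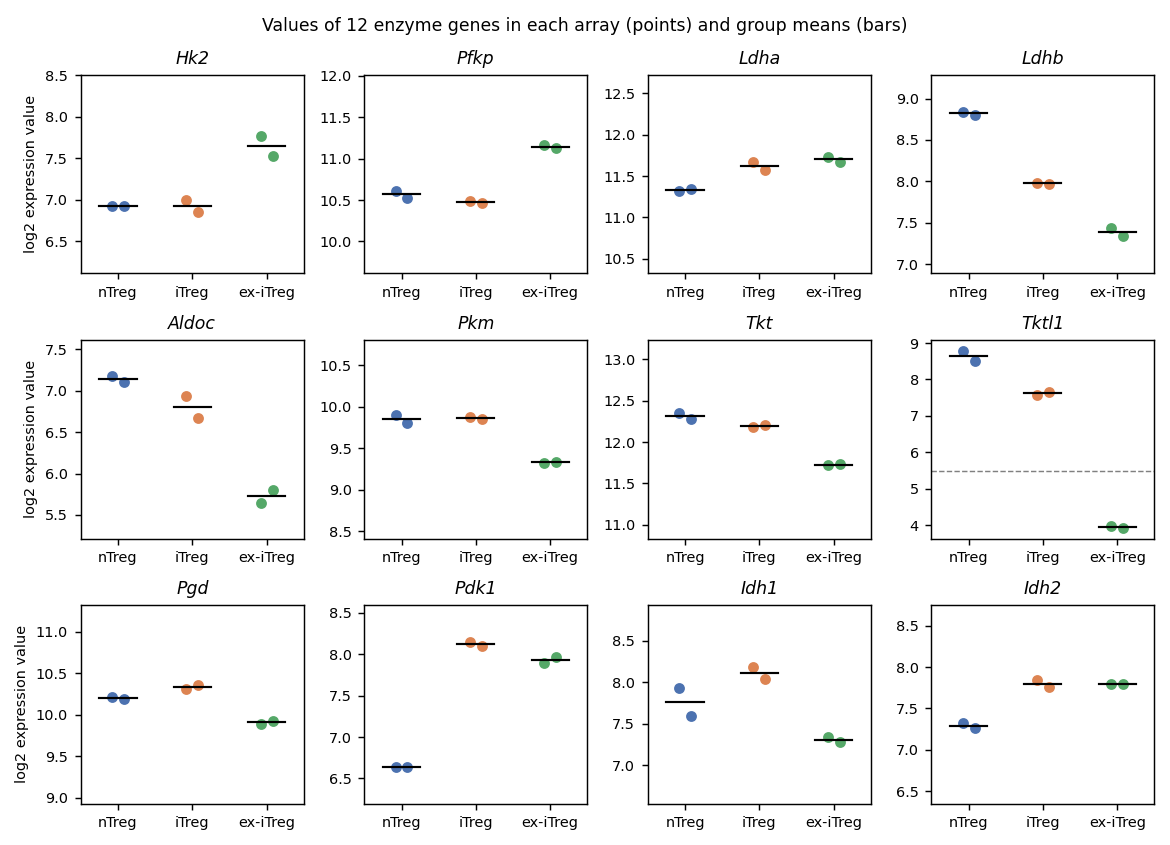
Log2 expression value of 12 enzyme genes in each array (points) with the mean of the 2 arrays of a population (bars); each panel has its own axis range, and the dashed line for Tktl1 is the filter level of 5.48. Hk2 and Pfkp are highest in ex-iTreg arrays, Ldhb, Aldoc and Tktl1 step down from nTreg to ex-iTreg arrays, and Pdk1 and Idh2 are low in nTreg arrays alone.

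In the pentose phosphate pathway 4 of the 6 measured genes were lower and 0 higher in ex-iTreg than in iTreg arrays. Of all tested genes, 21% were lower and 15.6% higher, and with 6 genes a count of 0 higher is close to that share. The oxidative arm makes NADPH, through the dehydrogenase encoded by G6pdx (not measured here), the lactonase Pgls and the 6-phosphogluconate dehydrogenase Pgd. Pgd read 10.21 and 10.19 in nTreg, 10.31 and 10.36 in iTreg and 9.89 and 9.93 in ex-iTreg arrays. The ex-iTreg arrays were the lowest on this probe set, and Pgd fell by 0.42 ± 0.06 from iTreg arrays (adjusted p = 0.00337), as it did on all 3 other probe sets. Its fall from nTreg arrays was 0.29 ± 0.06 (adjusted p = 0.013), passed on 1 of those 3 others, and was lost without either ex-iTreg array (adjusted p from 0.0558 to 0.0825). Pgls read 9.43 and 9.29, 9.72 and 9.69, and 9.45 and 9.39 in the same order, so that iTreg arrays were highest. It rose by 0.34 ± 0.07 and fell by 0.29 ± 0.07 in the first 2 comparisons (adjusted p = 0.017 and 0.0241). The rise was lost without any 1 of nTreg pool 2 and the iTreg arrays (adjusted p from 0.0608 to 0.0763), and the fall without any 1 of the 4 arrays compared (0.0759 to 0.128).

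The non-oxidative arm contained the largest difference of all 32 genes. Transketolase, which moves 2-carbon units between sugars, is encoded by Tkt, and Tktl1 encodes a transketolase-like protein whose enzymatic role is disputed. Tktl1 read 8.79 and 8.50 in nTreg arrays, 7.57 and 7.67 in iTreg arrays, and 3.98 and 3.94 in ex-iTreg arrays. The groups were fully separated, and both ex-iTreg arrays lay below the filter level, so the size of the drop to them is not resolved. Tktl1 fell by 1.02 ± 0.11 in iTreg against nTreg arrays, 2.03-fold (adjusted p = 0.00138), and the fitted differences to ex-iTreg arrays were -3.66 ± 0.11 from iTreg and -4.68 ± 0.11 from nTreg (adjusted p = 9.49e-06 and 1.87e-06). The other tested probe set gave -1.19, -2.51 and -3.71 for these comparisons and passed in each. A probe set of Tktl1 with a mean of 4.18 was below the filter.

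Tktl1 lies on the X chromosome, and the pools differed in sex-linked transcripts. Xist, made from the inactive X chromosome, read 13.16 and 13.16 in nTreg, 11.87 and 11.87 in iTreg and 9.42 and 9.12 in ex-iTreg arrays, and the Y-linked Eif2s3y read 8.57 and 8.50, 9.69 and 9.68, and 10.41 and 10.46. Their part in the Tktl1 values was not tested. The other tested X-linked genes, Pgk1, Idh3g and Pdha1, passed in no comparison on the probe set used, with differences between -0.13 and 0.18.

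Tkt read 12.35 and 12.28 in nTreg, 12.18 and 12.20 in iTreg and 11.72 and 11.73 in ex-iTreg arrays. The ex-iTreg arrays were the lowest, and the smaller gap between nTreg and iTreg arrays did not pass on this probe set (-0.13 ± 0.06, adjusted p = 0.169). Of the 2 other Tkt probe sets, 1 was lower in iTreg than nTreg arrays (-0.42, adjusted p = 0.0371). Tkt fell by 0.46 ± 0.06 from iTreg arrays and by 0.60 ± 0.06 from nTreg arrays to ex-iTreg arrays, the latter 1.51-fold (adjusted p = 0.00245 and 0.00073), and both other probe sets passed in the same direction. Rpia, ribose 5-phosphate isomerase, was lower in ex-iTreg than nTreg arrays by only 0.24 ± 0.07 on the log2 scale (adjusted p = 0.0398), and the call was lost without any 1 of the 6 arrays (adjusted p from 0.0552 to 0.195). Taldo1, transaldolase, read 10.97 to 11.22 and passed nowhere.

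Of the 6 genes of this pathway, 1 was higher and 1 lower in iTreg minus nTreg arrays, 0 higher and 4 lower in ex-iTreg minus iTreg arrays, and 0 higher and 4 lower in ex-iTreg minus nTreg arrays. The medians were -0.02, -0.35 and -0.26, beside 0.04, -0.02 and 0.03 over all tested genes. Of all tested genes, 15.6% were higher and 21% lower in ex-iTreg than iTreg arrays, and 18.4% higher and 19% lower in ex-iTreg than nTreg arrays. The 2 calls of iTreg minus nTreg became 1 without nTreg pool 2 or either iTreg array, and the 4 of ex-iTreg minus nTreg became 2 without either ex-iTreg array.

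Among the enzymes of pyruvate entry that belong to the 36 genes, Pdk1 showed the largest difference. Pdk1 phosphorylates and inactivates the pyruvate dehydrogenase complex. It read 6.64 and 6.64 in nTreg arrays, 8.15 and 8.10 in iTreg arrays, and 7.89 and 7.97 in ex-iTreg arrays. Both populations of cultured origin lay more than 1 log2 unit above the nTreg arrays. Pdk1 rose by 1.49 ± 0.06 in iTreg and by 1.29 ± 0.06 in ex-iTreg against nTreg arrays (adjusted p = 9.15e-05 and 3.28e-05). Its other 2 tested probe sets differed by 1.23 and 1.76 in the former comparison and by 0.94 and 1.66 in the latter, and all passed. Between ex-iTreg and iTreg arrays it differed by -0.20 ± 0.06 (adjusted p = 0.054), and 1 of the other probe sets was lower at -0.29 (adjusted p = 0.0142).

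Of the complex that Pdk1 acts on, the subunit genes Pdha1 and Dlat moved far less than Pdk1 against nTreg arrays. Other subunit genes of the complex are among the related genes treated below. Dld passed at -0.39 in iTreg minus nTreg and at 0.55 in ex-iTreg minus iTreg arrays, where Pdk1 differed by only -0.20. Pdhx passed at 0.24 in ex-iTreg minus iTreg and at 0.34 in ex-iTreg minus nTreg arrays, and Pdhb passed in no comparison. Pdha1, the regulated E1 alpha subunit, read 10.32 to 10.44 and passed nowhere. The other Pdha1 probe set was higher in ex-iTreg arrays by 0.29 against iTreg and 0.26 against nTreg (adjusted p = 0.0154 and 0.0232). Dlat, the E2 subunit, read 7.83 and 7.80 in nTreg, 7.79 and 7.75 in iTreg and 7.46 and 7.57 in ex-iTreg arrays. It was lower in ex-iTreg arrays, by 0.26 ± 0.07 against iTreg and 0.30 ± 0.07 against nTreg on the log2 scale (adjusted p = 0.0271 and 0.0158). The former was lost without any 1 of the 4 arrays compared (adjusted p from 0.0576 to 0.149), the latter without nTreg pool 1 or ex-iTreg pool 1 (0.0564 to 0.1), and on its other probe sets the former passed (-0.36 and -0.36) and the latter did not (-0.22 and -0.10).

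The isocitrate dehydrogenases, enzymes of different compartments and cofactors, did not move together. Idh1, the cytosolic NADP-dependent enzyme, read 7.93 and 7.59 in nTreg, 8.19 and 8.04 in iTreg and 7.34 and 7.28 in ex-iTreg arrays. It was lowest in ex-iTreg arrays, and the nTreg arrays differed from each other by more than those of any other group. Idh1 fell by 0.81 ± 0.12 from iTreg to ex-iTreg arrays, 1.75-fold (adjusted p = 0.00355), and by 0.45 ± 0.12 from nTreg to ex-iTreg arrays (adjusted p = 0.0278), and its other probe set passed in both. The latter call was lost without nTreg pool 1 or either ex-iTreg array (adjusted p from 0.0732 to 0.125). Idh2, the mitochondrial NADP-dependent enzyme, read 7.32 and 7.26 in nTreg, 7.84 and 7.76 in iTreg and 7.80 and 7.79 in ex-iTreg arrays. It was low in nTreg arrays alone, rising by 0.51 ± 0.07 in iTreg and 0.51 ± 0.07 in ex-iTreg arrays (adjusted p = 0.00292 and 0.0017). Its other probe set, with a lower mean of 5.65, differed by 0.07 and 0.15 and did not pass. Of the NAD-dependent Idh3 enzyme of the cycle, the subunit genes Idh3b and Idh3g passed nowhere on the probe sets used, and Idh3a was higher by 0.33 ± 0.07 in ex-iTreg than iTreg arrays (adjusted p = 0.0136) while its 3 other probe sets, at -0.11, -0.11 and 0.19, did not pass. Without iTreg pool 2 or either ex-iTreg array that Idh3a call was lost too (adjusted p from 0.068 to 0.0735).

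Among the remaining enzymes of the cycle, Ogdh, a subunit of the oxoglutarate dehydrogenase complex, was highest in iTreg arrays. On the probe set used it rose by 0.37 ± 0.08 from nTreg and fell by 0.26 ± 0.08 to ex-iTreg arrays (adjusted p = 0.0184 and 0.0486), whereas the other passed only for the rise (0.29 and -0.14). The rise was lost without nTreg pool 2 or either iTreg array (adjusted p from 0.056 to 0.0801) and the fall without any 1 of the 4 arrays compared (0.132 to 0.188). Mdh1, the cytosolic malate dehydrogenase, read 12.44 and 12.49 in nTreg, 12.23 and 12.18 in iTreg and 12.12 and 12.17 in ex-iTreg arrays. It was highest in nTreg arrays, falling by 0.26 ± 0.06 in iTreg and 0.32 ± 0.06 in ex-iTreg arrays (adjusted p = 0.0279 and 0.00956), and 2 of its 3 other tested probe sets passed in each. The former call was lost without any 1 of the 6 arrays (adjusted p from 0.0566 to 0.128) and the latter without ex-iTreg pool 1 (0.0661). Mdh2, the mitochondrial malate dehydrogenase, and Fh1, fumarase, passed nowhere on the probe sets used, their differences lying between -0.15 and 0.12. The other Mdh2 probe set was highest in iTreg arrays, higher by 0.25 than in nTreg and lower by -0.38 in ex-iTreg minus iTreg arrays (adjusted p = 0.0282 and 0.00489). Cs, citrate synthase, read 10.78 to 11.03 and did not pass on the probe set used, but both other probe sets were higher in iTreg than nTreg arrays (0.27 and 0.34, adjusted p = 0.0319 and 0.0095), and in ex-iTreg minus nTreg arrays they passed in opposite directions (-0.27 and 0.24). In ex-iTreg minus iTreg arrays Cs differed by -0.20 on the probe set used (adjusted p = 0.0555; 5 of 16 alternatives passed, over a range of 0.00205 to 0.229), and of the others 1 fell by 0.54 (adjusted p = 0.00205) and 1 did not pass (-0.10).

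Over the 13 genes of the TCA cycle and its entry, 3 were higher and 1 lower in iTreg minus nTreg arrays, 1 higher and 3 lower in ex-iTreg minus iTreg arrays, and 2 higher and 3 lower in ex-iTreg minus nTreg arrays. The medians were 0.11, -0.13 and -0.02, beside 0.04, -0.02 and 0.03 over all tested genes, and 30.8%, 30.8% and 38.5% passed, beside 29.1%, 36.6% and 37.4% of all tested genes. In ex-iTreg minus iTreg arrays 1 of the 13 differences was above 0, as were 5128 of the 11015 of all tested genes, and most of the 13 did not pass. Without an array the 4 calls of iTreg minus nTreg became 2 (nTreg pool 2 or either iTreg array), the 4 of ex-iTreg minus iTreg became 2 (iTreg pool 1) or 1 (iTreg pool 2 or either ex-iTreg array), and the 5 of ex-iTreg minus nTreg became 3 (nTreg pool 1) or 2 (ex-iTreg pool 1).

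**Figure D3:**
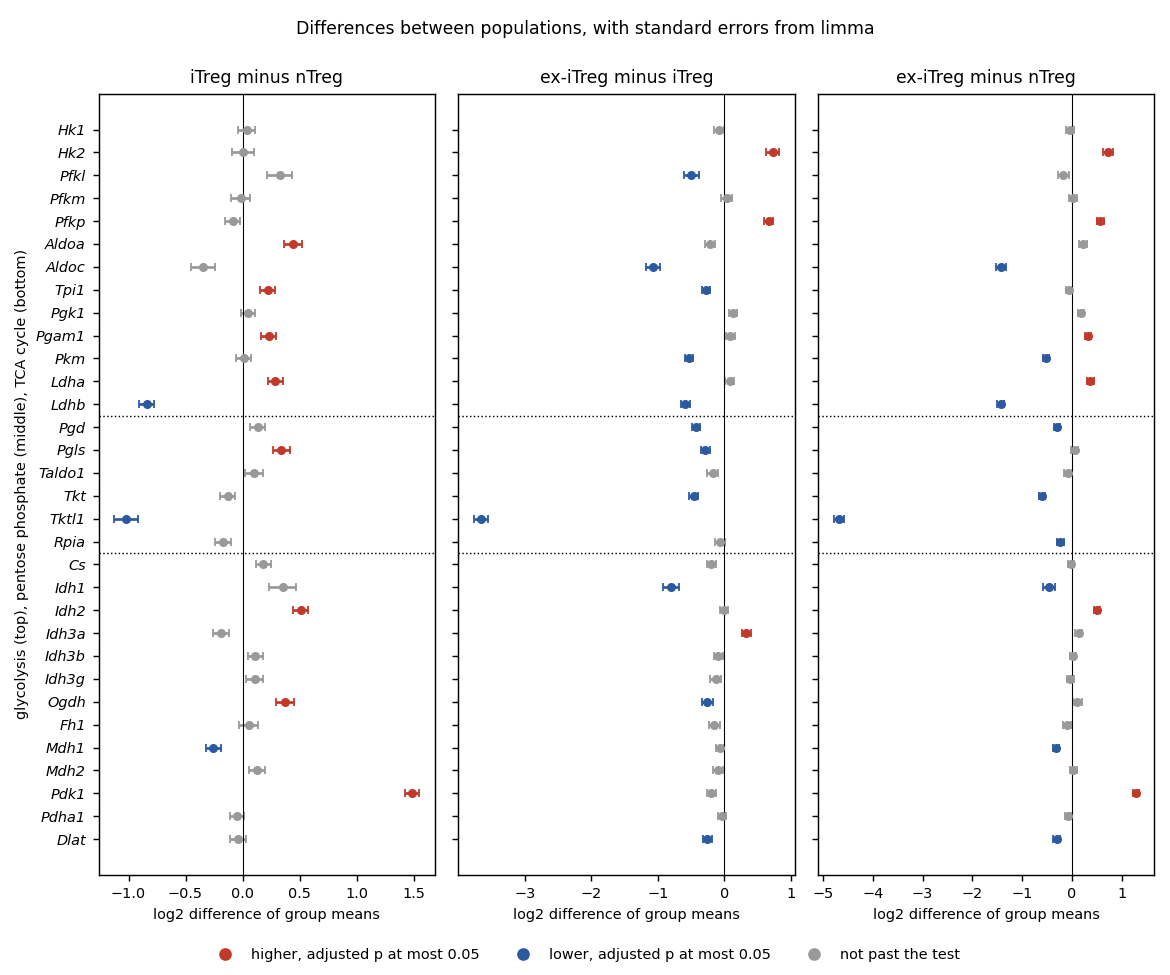
Log2 difference of group means with its standard error from limma for each of the 32 genes in the 3 comparisons, grouped by pathway between dotted lines; axis ranges differ between panels. Red and blue points passed at an adjusted p of 0.05, and the Tktl1 differences of -3.66 and -4.68 stand far outside the rest.

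Other probe sets of a gene often, but not always, gave the same call. Of the genes with more than 1 tested probe set, 22 in all, 8 passed in iTreg minus nTreg, and in 4 of these every other probe set passed in the same direction. These numbers were 11 and 8 in ex-iTreg minus iTreg and 10 and 5 in ex-iTreg minus nTreg. Where the probe set used had passed, none of the other tested probe sets passed in the opposite direction in these comparisons. Where it had not passed in iTreg minus nTreg, another was higher for Pfkl, Pgd and Idh1 (0.30, 0.31 and 0.31) as for Cs and Mdh2, and lower for Tkt.

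**Figure D4:**
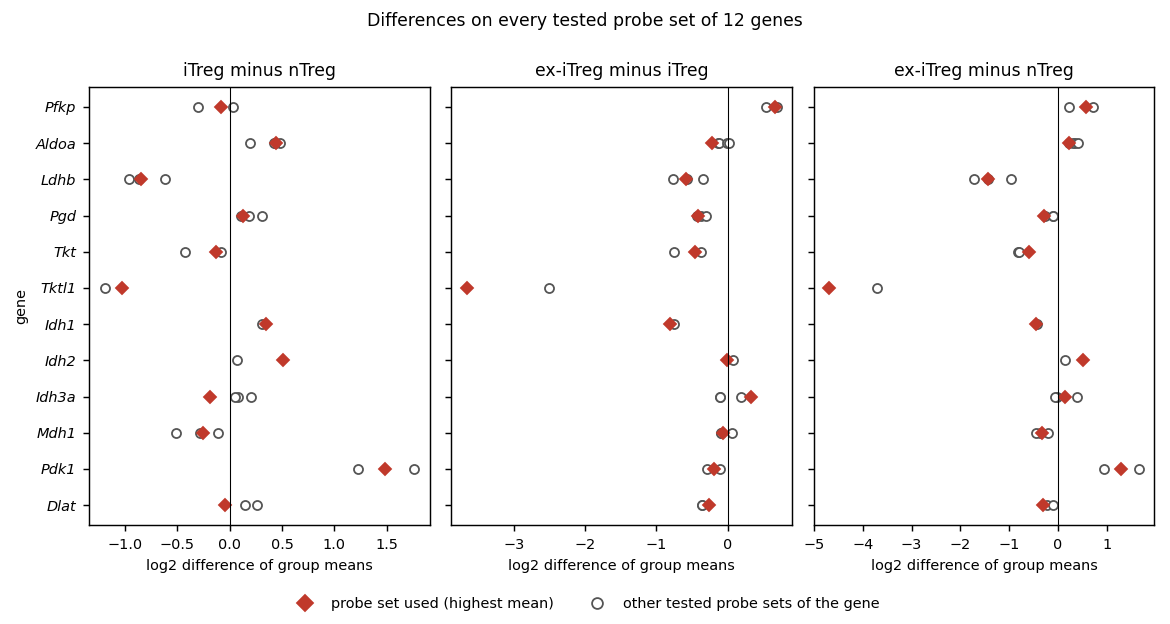
Log2 differences on every tested probe set of 12 genes, with the probe set used (red diamonds) and the gene's others (open circles), in the 3 comparisons; axis ranges differ between panels. Ldhb, Tktl1 and Pdk1 agree over their probe sets, while the second Idh2 probe set lies near 0 and those of Idh3a fall on both sides of 0.

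Related genes outside the 36 were taken from 7 lists with 90 genes, of which 84 had a named probe set and 70 were tested. In iTreg minus nTreg arrays 12 were higher and 6 lower (25.7%), in ex-iTreg minus iTreg arrays 7 higher and 17 lower (34.3%), and in ex-iTreg minus nTreg arrays 12 higher and 15 lower (38.6%), close to the shares of all tested genes.

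Glucose uptake held the largest of these differences. Slc2a3, which encodes the glucose transporter GLUT3, read 11.53 and 11.54 in nTreg, 12.08 and 12.06 in iTreg and 9.93 and 9.97 in ex-iTreg arrays. It rose by 0.54 ± 0.06 in iTreg against nTreg arrays and fell by 2.12 ± 0.06 in ex-iTreg against iTreg and by 1.58 ± 0.06 against nTreg arrays (adjusted p = 0.00192, 9.49e-06 and 1.19e-05), with its other tested probe set passing in the same directions (0.49, -2.07 and -1.58). Slc2a1, the transporter GLUT1, passed in no comparison on the probe set used (0.19, -0.17 and 0.02), and 1 of its 2 others was lower in ex-iTreg than iTreg arrays (-0.31). Slc16a1, the lactate transporter MCT1, was higher in ex-iTreg arrays by 0.48 ± 0.08 against iTreg and 0.33 ± 0.08 against nTreg (adjusted p = 0.00637 and 0.0241), and Bsg, its chaperone basigin, was highest in iTreg arrays. Of 6 tested transporter genes, 2 were higher and 0 lower in iTreg minus nTreg, 1 and 2 in ex-iTreg minus iTreg, and 1 and 1 in ex-iTreg minus nTreg.

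Among 14 tested further glycolysis genes, 2 were higher and 2 lower in iTreg minus nTreg, 1 and 3 in ex-iTreg minus iTreg, and 3 and 2 in ex-iTreg minus nTreg. Bpgm, bisphosphoglycerate mutase, read 8.81 and 8.72 in nTreg, 8.34 and 8.25 in iTreg and 9.05 and 9.19 in ex-iTreg arrays, and it rose by 0.82 ± 0.08 from iTreg to ex-iTreg arrays (adjusted p = 0.000679), with both other probe sets also higher. Galm, galactose mutarotase, fell by 0.96 ± 0.08 and 0.80 ± 0.08 in ex-iTreg against iTreg and nTreg arrays. Eno3, the muscle enolase, fell by 0.60 ± 0.08 in iTreg against nTreg, by 0.33 ± 0.08 in ex-iTreg against iTreg and by 0.92 ± 0.08 in ex-iTreg against nTreg arrays. Adpgk, an ADP-dependent glucokinase, was higher by 0.62 ± 0.07 in iTreg than nTreg arrays. Tigar, a fructose bisphosphatase, was higher by 0.48 ± 0.07 in the same comparison, but its other probe sets differed by 0.08 and by -1.59, the latter lower, so the sign differs among the Tigar probe sets.

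Of 3 tested gluconeogenesis genes, Pcx, pyruvate carboxylase, rose by 0.83 ± 0.08 in iTreg and by 0.58 ± 0.08 in ex-iTreg against nTreg arrays, and Pck2, the mitochondrial phosphoenolpyruvate carboxykinase, fell by 0.67 ± 0.09 and 0.72 ± 0.09 in ex-iTreg against iTreg and nTreg arrays. Of 5 tested further pentose phosphate genes, Prps1, a phosphoribosyl pyrophosphate synthetase, was higher by 0.28 ± 0.07 in iTreg than nTreg arrays, and H6pd, the hexose 6-phosphate dehydrogenase of the endoplasmic reticulum, fell by 0.76 ± 0.08 and 0.57 ± 0.08 in ex-iTreg against iTreg and nTreg arrays. In the list of 7 tested pyruvate entry genes, Pdp1, a phosphatase that reverses the action of Pdk1, read 8.44 and 8.49 in nTreg, 7.60 and 7.64 in iTreg and 8.19 and 8.18 in ex-iTreg arrays. It fell by 0.84 ± 0.06 in iTreg against nTreg arrays and rose by 0.57 ± 0.06 in ex-iTreg against iTreg arrays (adjusted p = 0.000417 and 0.00113), and its other probe set passed at -1.05 and 0.54. Pdp2, its paralog, moved the opposite way, by 0.43 ± 0.10 and -0.68 ± 0.10. Of 12 tested further TCA cycle genes, 2, 3 and 4 passed in the 3 comparisons, with Dld, the shared E3 subunit of the dehydrogenase complexes, higher by 0.55 ± 0.12 in ex-iTreg than iTreg arrays and Sdhc, a subunit of succinate dehydrogenase, lower by 0.37 ± 0.07 on the log2 scale, although the other Sdhc probe set differed by -0.02.

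Among 23 tested regulators, 4 were higher and 2 lower in iTreg minus nTreg, 2 and 6 in ex-iTreg minus iTreg, and 3 and 6 in ex-iTreg minus nTreg arrays. Myc, a transcription factor that drives glycolytic genes in activated T cells, was highest in iTreg arrays (0.56 ± 0.10 against nTreg and -0.51 ± 0.10 in ex-iTreg minus iTreg, adjusted p = 0.0112 and 0.0109). Hif1a, the oxygen-regulated transcription factor, differed by -0.22, -0.03 and -0.24 in the 3 comparisons and passed in the last (adjusted p = 0.0332), while its 3 other probe sets were lower than in nTreg arrays in both iTreg (-0.49, -0.81 and -0.87) and ex-iTreg arrays (-0.31, -0.79 and -0.84). Egln3, an oxygen-sensing hydroxylase, fell by 0.74 ± 0.08 in iTreg and by 0.82 ± 0.08 in ex-iTreg against nTreg arrays, the former not passing on its other probe set (-0.30). Bnip3 fell by 0.77 ± 0.13 in ex-iTreg against iTreg and by 0.74 ± 0.13 against nTreg arrays. Nfe2l2, encoding the antioxidant regulator NRF2, was higher by 0.39 ± 0.06 in iTreg than nTreg arrays, but its other probe set was lower (-0.36), and it was higher in ex-iTreg than nTreg arrays on both (0.57 and 0.73). Rictor, a subunit of the mTORC2 kinase complex, was higher in ex-iTreg arrays by 0.58 ± 0.07 against iTreg and 0.55 ± 0.07 against nTreg, on all 4 tested probe sets. Mlx, a partner of glucose-sensing transcription factors, fell by 0.51 ± 0.09 from iTreg to ex-iTreg arrays on the probe set used, and its other probe set differed by -0.10.

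**Figure D5:**
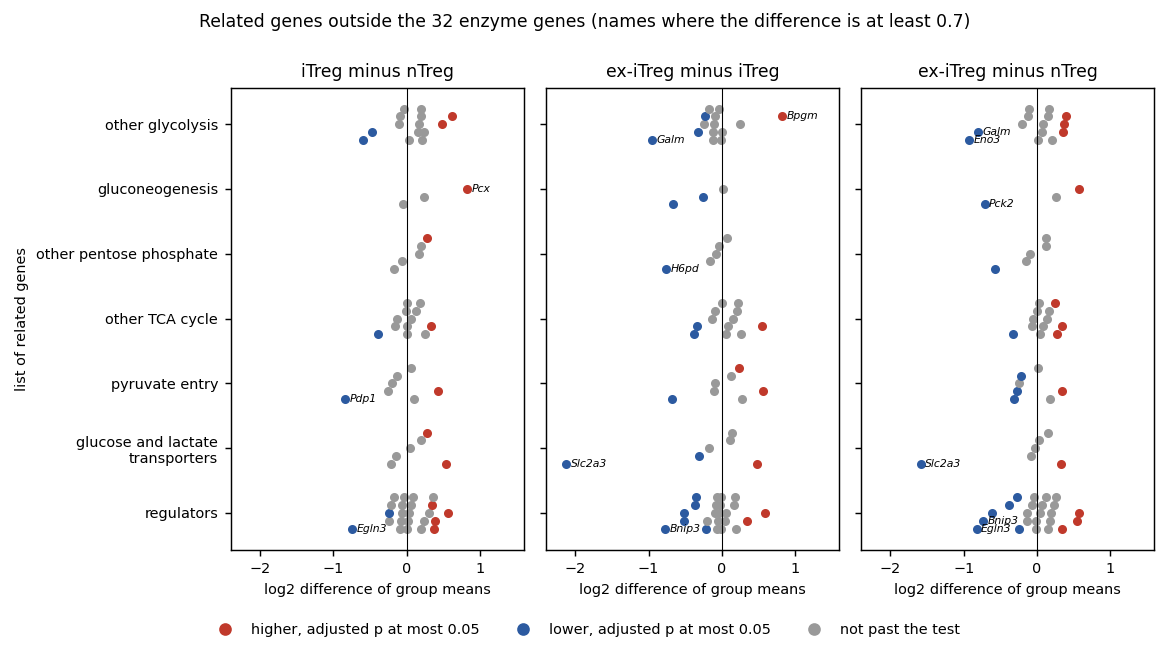
Log2 differences of the 70 tested related genes by list in the 3 comparisons; red and blue points passed at an adjusted p of 0.05, and names are given where a passing difference was at least 0.7. Slc2a3 stands apart at -2.12 and -1.58 in the comparisons with ex-iTreg arrays.

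Enzymes of central metabolism are made in all cells, and fewer cells of a type cannot be told apart here from less RNA per cell. All 6 tested T cell markers lay above the filter, and their summed linear level was 26967 to 27573 in nTreg, 25514 to 26269 in iTreg and 21938 to 22282 in ex-iTreg arrays, with 4 lower and 1 higher in ex-iTreg than nTreg arrays. Of 10 myeloid markers 9 were tested, all 9 higher in iTreg than nTreg, all 9 lower in ex-iTreg than iTreg and 5 higher in ex-iTreg than nTreg arrays, and the list's summed level was 2613 to 2704, 5062 to 5214 and 3178 to 3191 by group. Only Itgam of that list lay under the filter in all arrays. Erythroid markers (4 of 6 named, 3 tested) summed to 453 to 466, 700 to 714 and 415 to 472, with Hba-a1 under the filter, and the 3 tested markers were higher in iTreg than nTreg arrays. B cell markers summed to 386 to 391, 229 to 242 and 152 to 172, with Cd79a and Pax5 under the filter. Of the 3 tested B cell markers, Cd79b (means 7.66, 6.47 and 4.65) and Ms4a1 (5.71, 4.61 and 4.26) were lower in all 3 comparisons, and Cd22 passed in none. Of the 6 stromal and endothelial markers 4 were under the filter. The part of these markers in the enzyme differences was not tested. Aldoa, Tpi1, Pgls, Ogdh and Pdk1, among other enzymes, were highest in iTreg arrays, as were the myeloid and erythroid lists. That shared order fixes the signs in iTreg minus nTreg and ex-iTreg minus iTreg arrays, so the match of signs adds nothing to it. Not all of these differences passed. In all 3 comparisons Aldoa, Pgls, Ogdh and Pdk1, among others, had the signs of the myeloid list's medians. Of these named enzymes, only Pdk1 passed in ex-iTreg minus nTreg arrays. Other enzymes, such as Hk2, Pfkp, Ldhb, Tkt and Tktl1, did not have all 3 signs, and no share over all tested genes was computed. For Pdk1 the differences were 1.49, -0.20 (not past the test) and 1.29, beside medians of 1.22, -0.91 and 0.49. Ldhb, Tktl1 and Aldoc, among other enzymes, stepped down in the same order as the B cell list, the nTreg to iTreg step of Aldoc not past the test. Of 8 tested cell cycle genes, 3 were lower and 0 higher in iTreg than nTreg arrays, 4 lower and 2 higher (Top2a at 0.22 and Pcna at 0.38) in ex-iTreg than iTreg arrays, and 5 lower and 0 higher in ex-iTreg than nTreg arrays. Mki67 was lower in all 3 (-0.56, -0.38 and -0.94). The summed level of the list was 9075 to 9489 in nTreg, 7705 to 7923 in iTreg and 9024 to 9423 in ex-iTreg arrays, so that ex-iTreg and nTreg arrays overlapped. The Foxp3 probe set was under the filter in all arrays, so the reporter labels could not be checked on it; Il2ra, a gene high in regulatory T cells, read 10.06 and 9.98, 9.95 and 9.95, and 6.69 and 6.84 by group.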

How the data were processed

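The authors deposited a log2 table of all probe sets, for which the submitters' processing notes name RMA; its software, version and chip definition were not given in the sources used here. Medians by array of the deposited log2 values lay between 5.47 and 5.49, and arrays of a group correlated at 0.9957 to 0.9972 over tested probe sets. RMA can compress differences of low values, and the number of arrays limits the precision. From 45101 probe sets 64 array controls were left out; of the rest 34945 carried 1 gene symbol in the platform annotation, 932 several (not used by name) and 9160 none, and 34741 matched a RefSeq gene by Entrez identifier. For the 23484 probe sets above 5.48 in at least 2 arrays the test was limma's (version 3.58.1, under R 4.3.3, with lmFit and eBayes; 3 residual and 3.37 prior degrees of freedom), in 1 model of all 6 arrays without covariates. An exact test of 2 against 2 arrays cannot go below a two-sided p of 0.33. The fit was tested on simulated data. Genes and related lists were chosen with earlier results of these data known. The enzymes are all named. The rule gave full values to those past the test with a difference of at least 0.58, or with probe sets called in opposite directions, and other enzymes past the test were added. Of related genes it took up to 3 per list and comparison by moderated t, among which Pdk3, Aco1, Suclg1 and Suclg2 are not described here. Genes of the same lists, such as Slc2a1 and Hif1a, were added for context after their values were seen. Alternatives were the filter, scaling, fit, variance trend, pool number as a block, each array left out, and the choice of probe set. Promoters came from a RefSeq table of build GRCm38.p6, which held 35 of the 36 genes.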

Additional observations from a re-analysis of the deposited data

How the results depend on the processing

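Counts of genes past the test were recomputed under each alternative. Leaving out single arrays gave 3420 to 5380 of all probe sets in iTreg minus nTreg, 4971 to 9104 in ex-iTreg minus iTreg and 5243 to 7928 in ex-iTreg minus nTreg, where all arrays gave 6826, 8694 and 8558. In iTreg minus nTreg it gave 2 to 3 glycolysis (5), 1 to 2 pentose phosphate (2), 2 to 4 TCA cycle (4) and 10 to 18 related genes (18). In ex-iTreg minus iTreg it gave 5 to 8 glycolysis (7), 3 to 4 pentose phosphate (4), 1 to 4 TCA cycle (4) and 13 to 24 related genes (24), and in ex-iTreg minus nTreg 5 to 9 (7), 2 to 3 (4), 2 to 5 (5) and 14 to 25 (27). A group left with 1 array was assumed to vary like the others. Of the other alternatives, no filter gave 2 glycolysis calls in iTreg minus nTreg and 2 TCA cycle calls in ex-iTreg minus iTreg, where more probe sets shared the adjustment. In iTreg minus nTreg, there were 3 glycolysis calls with only the 4 arrays compared, and 3 with pool number as a replicate block. There the stricter filter gave 1 pentose phosphate call, having removed Tktl1, an intensity trend gave 4 pentose phosphate, 8 TCA cycle and 30 related genes, and the mean over probe sets gave 4 pentose phosphate and 7 TCA cycle calls; the cause of the last 2 was not tested. Idh3a in ex-iTreg minus iTreg turned to -0.11 (adjusted p = 0.337, limma) on the probe set without a suffix. Calls of Hk2, Pfkp, Aldoc, Pkm, Ldhb, Tkt and Tktl1 in both comparisons with ex-iTreg arrays, of Pgd and Idh1 in ex-iTreg minus iTreg, of Aldoa, Ldhb and Tktl1 in iTreg minus nTreg and of Pdk1 against nTreg arrays held under all alternatives in which they were tested. Pool number as a block lost 5 calls of single enzyme genes (Tpi1, Pgam1 and Mdh1 in iTreg minus nTreg, Ogdh in ex-iTreg minus iTreg, Rpia in ex-iTreg minus nTreg) and gained 1 (Idh1 in iTreg minus nTreg). Pool numbers did not pair the arrays (correlations of pool differences -0.007, -0.04 and -0.088).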
